A study of Mus musculus with 18 samples.

Results

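The accessible regions listed at 9 genes for T lineage identity factors (Runx1, Ets1, Fli1, Ikzf1, Ikzf3, Bcl11b, Satb1, Zbtb7b and Notch1) were examined in mouse CD4 T cells. The assay was ATAC-seq: a transposase cuts and tags DNA where nucleosomes leave it exposed, and the tagged fragments are sequenced. A region was taken as belonging to a gene where the table of regions named that gene as overlapped or as lying to its left or right, and 143 of 65983 regions (0.217%) met this rule. The 18 samples formed 6 groups of 3, which were Id3-KO Th1 cells at 24 h, Id3-KO Tcmp and Id3-KO Teff cells at 72 h, WT Th1 cells at 24 h, and WT Tcmp and WT Teff cells at 72 h. The labels give Tcmp and Teff without spelling them out and do not describe the knockout allele or the animals. All groups had been started from naive CD4 T cells with beads carrying anti-CD3 and anti-CD28, in medium with IL2, IL12 and anti-IL4. The regions form 1 set for all groups, so the counts below describe the CD4 T cell cultures together and make no contrast of Id3-KO with WT cells. The fold changes and p-values deposited beside the regions follow the order of the rows and not the regions, and are not given. No level by sample was at hand for Id3 either, so the knockout label was not checked.

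These 9 genes were grouped here as T lineage identity factors. Notch1 is the receptor whose signal starts the T lineage programme in the thymus, Bcl11b is a zinc finger factor needed for commitment to that lineage, and Zbtb7b (ThPOK) directs thymocytes to the CD4 helper branch. Runx1 is a runt domain factor, Ets1 and Fli1 are ETS factors, Ikzf1 (Ikaros) and Ikzf3 (Aiolos) are zinc finger factors of lymphoid cells, and Satb1 is an organiser of chromatin loops in thymocytes. Id3, the gene knocked out, blocks E proteins, which bind the E box, a short motif with the letters CANNTG.

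Promoter sequences from RefSeq, each of 250 bases before and 50 bases after an annotated start, were available for 6 of the 9 genes, 13 sequences in all. They are on build GRCm38.p6, whereas the regions are on GRCm39, so they were matched to the genes by symbol only and could not be placed inside a region. Of these, 7 are shown here in place of all, written 5′ to 3′ on the strand of the gene, because they contrast promoters with and without E boxes and with many and few CpG pairs. Capitals mark every match to CANNTG. The sequences lie at chr16:92826025-92826324 (minus strand) and chr16:92697280-92697579 (minus) for the upstream and downstream starts of Runx1, at chr17:51826539-51826838 (minus) for start 3 of 5 Satb1 starts counted from the 5′ end, at chr3:89393329-89393628 (minus) for the upstream start of Zbtb7b, at chr12:108003365-108003664 (minus) for Bcl11b, at chr11:11685675-11685974 (plus) for the upstream start of Ikzf1 and at chr2:26503773-26504072 (minus) for Notch1.
Runx1 upstream start: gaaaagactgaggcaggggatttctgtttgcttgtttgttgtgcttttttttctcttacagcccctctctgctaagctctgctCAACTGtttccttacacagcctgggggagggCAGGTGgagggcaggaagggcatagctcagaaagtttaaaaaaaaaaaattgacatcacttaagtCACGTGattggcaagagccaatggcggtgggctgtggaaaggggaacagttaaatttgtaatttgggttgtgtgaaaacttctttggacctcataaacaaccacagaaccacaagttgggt
Runx1 downstream start: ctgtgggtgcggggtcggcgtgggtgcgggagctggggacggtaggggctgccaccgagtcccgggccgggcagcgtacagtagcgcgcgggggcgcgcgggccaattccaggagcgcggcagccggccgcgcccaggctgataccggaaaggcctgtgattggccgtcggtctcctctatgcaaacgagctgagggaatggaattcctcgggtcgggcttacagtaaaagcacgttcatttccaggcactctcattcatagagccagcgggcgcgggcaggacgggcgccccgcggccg
Satb1 start 3: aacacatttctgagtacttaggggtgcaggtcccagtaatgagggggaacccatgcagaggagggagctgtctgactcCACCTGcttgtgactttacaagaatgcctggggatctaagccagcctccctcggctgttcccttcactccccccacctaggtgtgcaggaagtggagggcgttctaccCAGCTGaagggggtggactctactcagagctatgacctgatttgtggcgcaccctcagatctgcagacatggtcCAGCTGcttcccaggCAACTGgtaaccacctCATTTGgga
Zbtb7b upstream start: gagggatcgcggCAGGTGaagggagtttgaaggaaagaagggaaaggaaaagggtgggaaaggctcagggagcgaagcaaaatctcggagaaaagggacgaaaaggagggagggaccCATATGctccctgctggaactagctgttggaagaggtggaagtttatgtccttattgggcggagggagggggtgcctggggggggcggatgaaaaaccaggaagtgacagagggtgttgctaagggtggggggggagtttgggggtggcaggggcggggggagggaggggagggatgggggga
Bcl11b: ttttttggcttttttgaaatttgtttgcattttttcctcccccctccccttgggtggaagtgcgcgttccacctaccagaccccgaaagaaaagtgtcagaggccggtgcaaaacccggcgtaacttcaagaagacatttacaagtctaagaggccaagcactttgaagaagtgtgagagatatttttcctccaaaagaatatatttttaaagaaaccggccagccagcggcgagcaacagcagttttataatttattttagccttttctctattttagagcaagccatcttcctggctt
Ikzf1 upstream start: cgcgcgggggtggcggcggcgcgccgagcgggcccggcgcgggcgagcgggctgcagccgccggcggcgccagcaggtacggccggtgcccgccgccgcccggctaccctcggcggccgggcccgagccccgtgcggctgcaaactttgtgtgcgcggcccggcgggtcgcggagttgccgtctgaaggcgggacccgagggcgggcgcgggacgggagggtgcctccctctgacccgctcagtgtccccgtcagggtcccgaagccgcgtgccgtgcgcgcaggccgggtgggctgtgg
Notch1: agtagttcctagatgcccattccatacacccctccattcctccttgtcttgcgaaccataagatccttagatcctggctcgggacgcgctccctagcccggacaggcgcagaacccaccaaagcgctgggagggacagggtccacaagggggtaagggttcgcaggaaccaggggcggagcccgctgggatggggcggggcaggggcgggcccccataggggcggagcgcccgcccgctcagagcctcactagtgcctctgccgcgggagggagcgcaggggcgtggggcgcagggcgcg

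At least 1 E box was found in 7 of the 13 promoter sequences, against 72.3% of all 32851 promoter sequences of the same length, both strands being searched. The 2 forms CAGCTG and CAGGTG, which are part of CANNTG, occurred in 4 of 13, against 32.9% of all. Satb1 start 3 held 5 E boxes, 2 of them CAGCTG, and the upstream Runx1 start held 3. The downstream Runx1 start, Satb1 start 2, the Bcl11b and Notch1 starts and both Ikzf1 starts held none in these windows. The ETS letters CCGGAA occurred in 1 of 13 (14.9% of all promoters), the RUNX letters TGTGGT in 2 (16.8%) and the Ikaros letters TGGGAA in 3 (25.6%). TGTGGT occurred in the upstream Runx1 start, with 2 matches, and in the downstream Zbtb7b start, with 1. The windows of Satb1 starts 4 and 5 overlap each other, so the sequences are not independent.

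Each of the 9 loci carried more listed regions than most genes. Runx1 and Ets1 had 27 regions each, Bcl11b 19, Ikzf1 18, Fli1 16, Satb1 13, Ikzf3 10, Notch1 7 and Zbtb7b 6. Their median was 16, against a median of 2 (quartiles 1 and 3) over the 26755 genes that the table names. Apart from Runx1 and Ets1, which tied, the counts differ from gene to gene, but a count of listed regions carries no replicate error and no test was made. Runx1 and Ets1 had more regions than 99.7% of genes, and each was matched or exceeded by 66 other genes. Bcl11b and Ikzf1 exceeded 99.2% and 99.1% of genes, Fli1 98.8%, Satb1 98.1% and Ikzf3 96.6%. Notch1 and Zbtb7b stood lower, above 92.8% and 90.3% of genes.

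**Figure D1:**
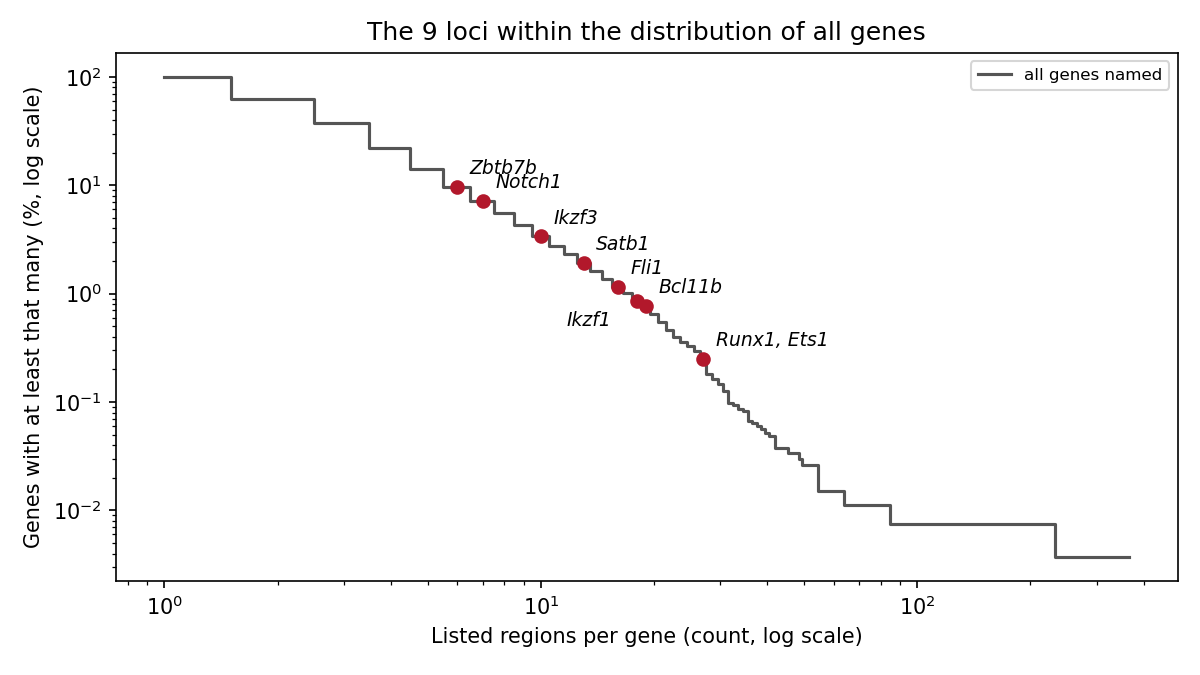
Share of genes (y axis, %, log scale) with at least a given number of listed regions (x axis, count, log scale). The line holds all 26755 genes named and the red points are the 9 loci, from Zbtb7b with 6 regions to Runx1 and Ets1 with 27, all right of the median of 2.

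Density gave another order. Measured between the outermost regions that overlap a gene, the loci spanned 18650 bp (Zbtb7b) to 220300 bp (Runx1), with a median of 87950 bp, against 68000 bp over the 2855 genes with 5 or more overlapping regions. Density over that span was 3.22 regions per 10 kb at Zbtb7b, 2.81 at Notch1, 2.35 at Ets1, 2.35 at Ikzf1, 2.16 at Bcl11b, 2.05 at Ikzf3, 1.70 at Fli1, 1.40 at Satb1 and 1.23 at Runx1. Zbtb7b and Notch1, which had the fewest regions and the shortest spans, were the densest, and Runx1 was the least dense. All 9 were above the median density of those 2855 genes, 1.17 regions per 10 kb, but Runx1 only just, as it was denser than 52.6% of them and Satb1 than 60.3%. By number of overlapping regions within the same 2855 genes, Runx1 exceeded 97.8%, Satb1 83.8%, Notch1 44.6% and Zbtb7b 26.5%. Among those of the 2855 genes that had a similar span (within 1.5 times), Ets1 had more overlapping regions than 98.7%, Ikzf1 than 97.3%, Bcl11b than 96.8%, Runx1 than 93.3%, Fli1 than 90.6%, Ikzf3 than 87.7%, Satb1 than 82.7%, Notch1 than 75.5% and Zbtb7b than 61.0%. Genes with fewer than 5 overlapping regions are left out of these ranks, which weighs most on Zbtb7b and Notch1, the loci with the lowest counts.

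The regions lay inside the genes or at their promoters. All 143 overlapped the gene or its promoter, and 0 lay only beside it within the 5 kb to which the table lists distances. Over all genes, 21.7% of the entries that name a gene were of this flanking kind. A gene without any flanking region was nevertheless common at these counts, as 46.4% of the 2558 genes with 6 to 27 regions had none. No region named 2 of the 9 genes. Another annotated gene was overlapped as well in 16 of the 143 regions (11.2%), against 19.5% of all regions that overlap a gene. These shared regions lay at Fli1, Satb1, Zbtb7b and Ets1, and 5 of the 9 loci had none.

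Most of the regions were in introns. Of the 143, 114 (79.7%) overlapped only an intron of the gene, 8 (5.59%) an exon outside the promoter, and 21 (14.7%) the promoter, of which 13 also overlapped an exon, 4 an intron and 4 neither. Over all genes 43.7% of the overlapping entries were intron only and 47.2% touched a promoter. Genes with many regions had a similar make-up, since in the 809 genes with 10 or more overlapping regions 79.3% of entries were intron only and 15.2% touched a promoter. The 7 loci of that size had 83.1% and 13.1%.

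**Figure D2:**
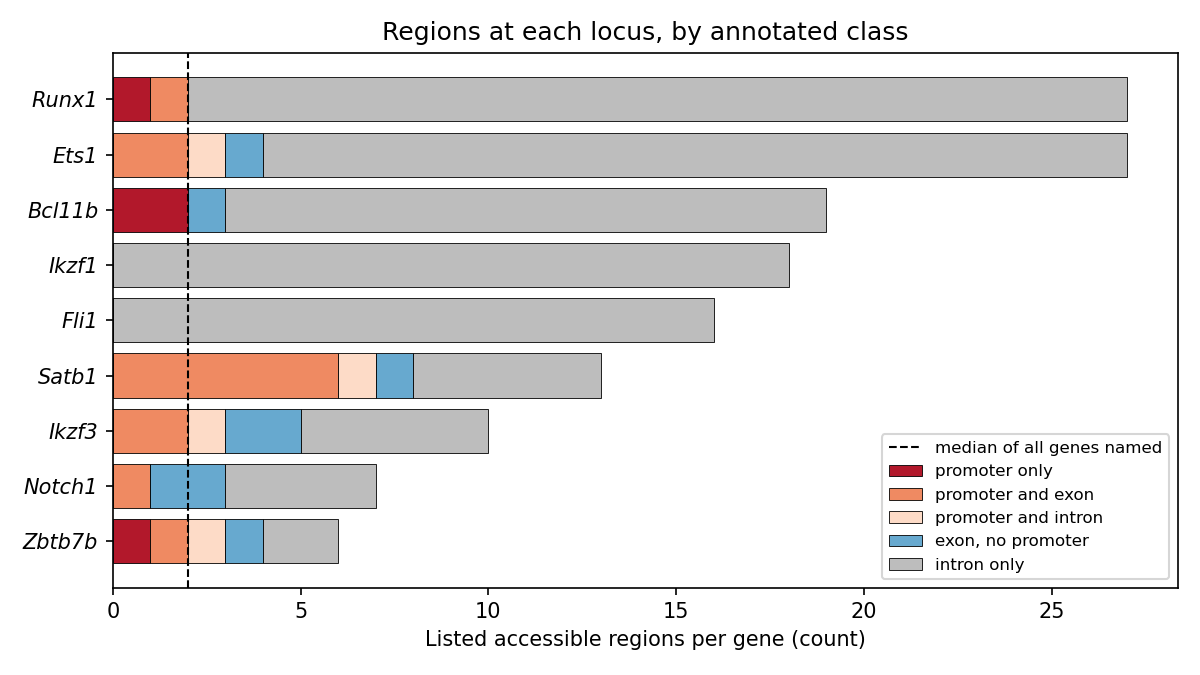
Listed regions per gene (x axis, count) for the 9 loci, split by the annotated class of the region; the dashed line is the median of all genes, 2. Grey, intron only, fills all 18 regions of Ikzf1 and all 16 of Fli1, while Satb1 has 7 of 13 at promoters.

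The make-up differed widely among the 9. Fli1 and Ikzf1 stood at one end, with 16 of 16 and 18 of 18 regions in introns and none of the promoter class. Of the 292 genes with 16 or more overlapping regions, 21 (7.19%) had no promoter region, these 2 genes among them. Runx1 followed with 25 of 27 regions in introns, Ets1 with 23 of 27 and Bcl11b with 16 of 19. Satb1 had the highest share at promoters, with 7 of 13 regions, 5 in introns and 1 in an exon. Its share of intron-only regions, 38.5%, was above that of only 1.36% of the genes with 10 or more overlapping regions. Zbtb7b had the lowest share in introns, with 2 of 6 and 3 at promoters, while Ikzf3 had 5 of 10 in introns and 3 at promoters, and Notch1 4 of 7 and 1.

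Runx1, whose product pairs with Cbfb to bind DNA, had its 2 regions of the promoter class at its 5′ end on chromosome 16 (GRCm39, minus strand). They were a region of a single window at 92624951 to 92625250 and a promoter and exon region at 92622401 to 92623150, which was 750 bp wide but held 3 windows where an unbroken run of 300 bp windows in 50 bp steps would give 10. All 25 others were intronic, and 19 of the 27 lay nearer to the 5′ than to the 3′ end of the span. A stretch of 79150 bp inside the gene, 92459151 to 92538300, held no region and was the largest such stretch at any of the 9 loci. The 2 promoter regions had centres 2325 bp apart, whereas the RefSeq starts printed above lie at 92826025 and 92697280 on GRCm38.p6. No region of the promoter class was therefore listed far downstream, although the downstream start held 35 CpG pairs. Whether that start falls in the empty stretch was not tested, as it was not placed on GRCm39.

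Ets1, on the plus strand of chromosome 9, had promoter regions in 2 places. The first, at 32547151 to 32547650, overlapped the promoter and an exon and was the 5′-most region of the gene. The others, at 32604051 to 32604650 and 32606901 to 32607600, lay 56950 and 59850 bp downstream of it. The last of them was 80 bp from another annotated part of the gene. Here and below, distances between promoter regions, and downstream of a gene's 5′-most region, run between the centres of regions. Empty stretches, and distances to the next region at another gene, run between edges. In contrast to Runx1, only 10 of the 27 regions of Ets1 were nearer to the 5′ end, and its largest empty stretch was 14650 bp.

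Fli1 lies beside Ets1 and is transcribed in the opposite direction, so that their 5′ ends face each other. Its 16 intron regions ran from 32357051 to 32451000, and 13 of them were nearer to its 5′ end. The region nearest to the 5′ end, at 32450601 to 32451000, was 1487 bp from an annotated part of Fli1 on its 5′ side. In 7 of the 16 regions another annotated gene was overlapped as well, in 6 of them under Ensembl identifiers for which no symbol was at hand. Between the last Fli1 region and the first Ets1 region, 96150 bp apart, the table listed 16 further regions, from 32460801 to 32540550. Of these, 11 named no gene, 4 overlapped another annotated gene and 1 lay within 5 kb of one. Together the 59 regions from Fli1 through Ets1 covered 304800 bp at 1.94 regions per 10 kb. Between its outermost regions the stretch between the genes had 2.01 regions per 10 kb, against 1.70 at Fli1 and 2.35 at Ets1 on the same measure, and over the whole 96150 bp it had 1.66. The regions between the genes held 1 to 8 windows (median 6), close to those of Fli1 (1 to 9, median 6) and Ets1 (1 to 11, median 6).

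**Figure D3:**
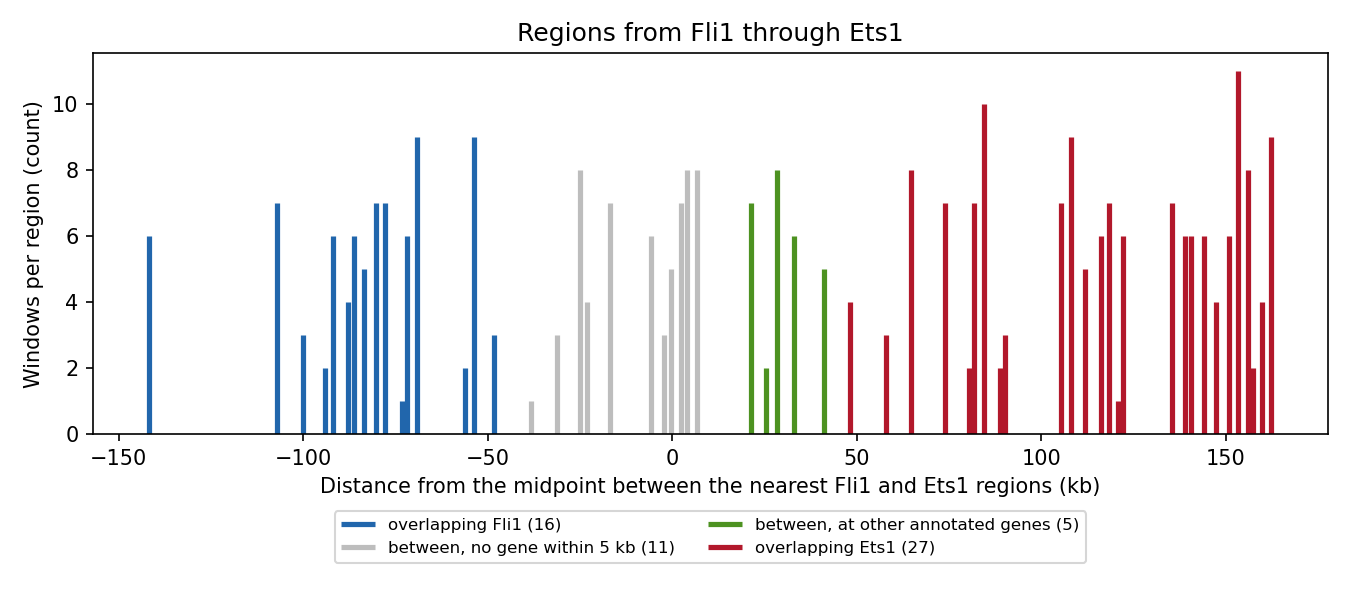
Windows per region (y axis, count) against the distance from the midpoint between the nearest Fli1 and Ets1 regions (x axis, kb). Each bar is 1 region; the 16 regions between the genes, 11 of them with no gene within 5 kb, fill the stretch from the 16 Fli1 regions on the left to the 27 Ets1 regions on the right.

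Ikzf1, on the plus strand of chromosome 11, had its 18 regions at 11639901 to 11716600. The 5′-most, at 11639901 to 11640650, was in an intron, 3433 bp from an annotated part of the gene on its 5′ side. No region of Ikzf1 carried the promoter class, although the upstream RefSeq start printed above had the most CpG pairs of the 13 sequences, 52 with 81.3% GC, against an upper quartile of 20 CpG pairs over all promoters. The downstream RefSeq start, at 11689927 to 11690226 on GRCm38.p6, held 2 CpG pairs. The class follows the deposited annotation and neither start was placed on GRCm39. Whether an intron-class region, such as the 5′-most, covers a RefSeq start was therefore not tested. Its largest empty stretch was 11600 bp, and 8 regions were nearer to the 5′ end.

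Ikzf3, on the minus strand of the same chromosome, had 10 regions at 98355351 to 98404200. The 5′-most, at 98403651 to 98404200, overlapped an exon and no promoter, 3477 bp from an annotated part on its 5′ side. Its 3 promoter regions lay 24025, 25350 and 35625 bp downstream of that one, at 98379751 to 98380050, 98378251 to 98378900 and 98367951 to 98368650.

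Bcl11b, on the minus strand of chromosome 12, had 19 regions at 107884951 to 107972900. Its 2 promoter regions were its 5′-most, at 107972351 to 107972900 and 107970051 to 107970700, 2490 and 190 bp from an annotated part of the gene on their 3′ side. The gene also stood apart from its neighbours. Beyond its 3′ end 5 regions that named no gene were passed before the next region at a gene, 134350 bp away, and beyond its 5′ end 4 were passed over 114550 bp before Setd3.

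Satb1, on the minus strand of chromosome 17, had 13 regions at 52047301 to 52140400. Its 7 promoter regions were also its 5′-most 7, from 52115651 to 52140400, the outer ones 24250 bp apart. RefSeq gives 5 starts for the gene. In 5 of the 13 regions another annotated gene was overlapped, and beyond the 3′ end of Satb1 the next region that named a gene was 311200 bp away.

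Zbtb7b, on the minus strand of chromosome 3, was the most compact locus, with 6 regions at 89285551 to 89304200. The 5′-most 3 were at promoters, and all 3 overlapped Gm15417, a gene on the opposite strand, too, so that the table cannot tell to which of the genes they belong. Notch1, on the minus strand of chromosome 2, had 7 regions at 26373151 to 26398050. Its single promoter region, at 26393651 to 26394100, was 450 bp wide with 4 windows and lay 3825 bp downstream of an intron region of 9 windows at 26397351 to 26398050, which was the 5′-most of the gene and 1574 bp from an annotated part on its 5′ side.

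The 9 loci thus fell into 2 kinds by their 5′ ends. At Runx1, Ets1, Bcl11b, Satb1 and Zbtb7b the 5′-most region was of the promoter class. At Fli1, Ikzf1, Ikzf3 and Notch1 it was not, and an annotated part of the gene lay 1487 to 3477 bp further upstream. Over the 2855 genes with 5 or more overlapping regions, 12.7% had a 5′-most region outside the promoter, and 15.8% of the 809 with 10 or more did. With 4 of 9 genes of this kind the comparison rests on few genes, and no test was made.

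**Figure D4:**
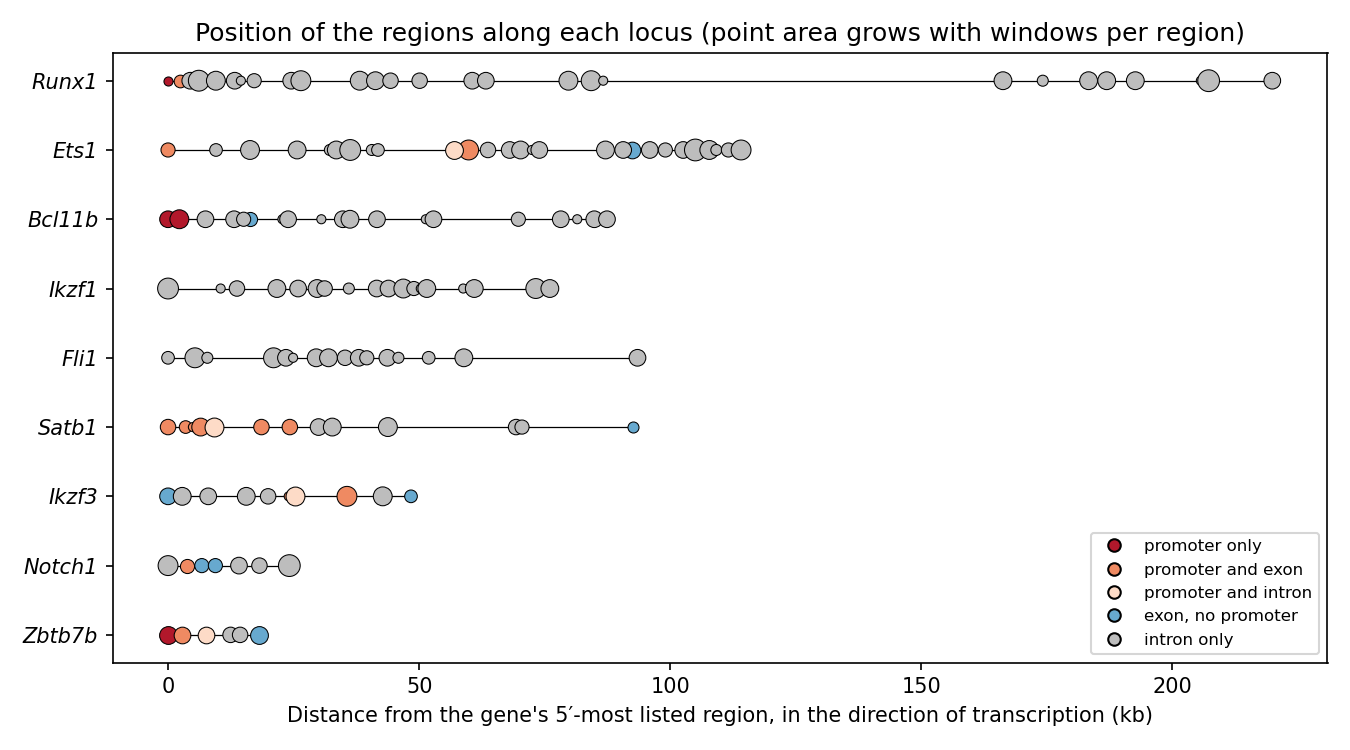
Position of every region along its gene (x axis, kb from the 5′-most listed region in the direction of transcription), with colour for the class and point area growing with the windows per region. Satb1 and Zbtb7b carry their promoter regions together at the 5′ end, Ets1 and Ikzf3 have some far downstream, and Fli1 and Ikzf1 have none.

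The regions were slightly smaller than those of the rest of the table. Their median width was 550 bp (range 300 to 850), the same as for all regions, but the mean was 533 bp against 563 bp (550 bp in genes with 10 or more overlapping regions), and 37.8% against 48.6% were wider than 550 bp. They held 791 windows, a median of 6 per region (range 1 to 11), as over all regions, and a mean of 5.53 against 6.21. The classes differed in this. The 13 regions over a promoter and an exon had a median width of 500 bp and 5 windows, against 650 bp and 8 windows over all such regions and 600 bp and 7 windows in genes with 10 or more overlapping regions. The 8 exon regions had medians of 450 bp and 4 windows, against 550 bp and 6 windows both over all such regions and in genes with 10 or more overlapping regions. The 4 regions over a promoter alone (575 bp) and the 4 over a promoter and an intron (625 bp) were wider by the median than all regions of their class (550 bp in both). For the 114 intron regions the medians were 550 bp and 6 windows, equal to those of all intron regions.

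Regions of a single window, the smallest the table lists, were more frequent at these loci. There were 15 of 143 (10.5%), against 3.81% of all regions and 4.39% of the regions of genes with 10 or more overlapping regions. They were unevenly spread, with 4 at Bcl11b, 4 at Runx1, 3 at Ikzf1, 1 each at Ets1, Fli1, Ikzf3 and Satb1, and 0 at Notch1 and Zbtb7b. The share at Bcl11b, 21.1%, was higher than in 99.8% of genes with 10 or more overlapping regions, that at Ikzf1 (16.7%) than in 96.5% and that at Runx1 (14.8%) than in 94.9%, where the median gene had 0. Regions with windows missing from their run numbered 5 of 143 (3.50%), against 2.24% of all regions. The widest of these, in an intron of Fli1, held 4 windows over 850 bp where 12 would fill it.

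The distances listed to the left and right run to annotated parts of a gene beyond the region, since regions inside an intron carry distances to their own gene. At the 9 loci, 104 such distances ranged from 9 to 4987 bp with a median of 1962 bp, against 1315 bp for all genes in the regions that overlap them, and 51.0% against 65.4% were within 2 kb. A further 61 of the 143 regions (42.7%) had no part of their gene listed within 5 kb on either side, against 29.7% over all genes. Fli1 was the extreme case, with a distance listed for 2 of its 16 regions, while all 6 regions of Zbtb7b and all 7 of Notch1 had one. Along each locus, the median gap between the edges of neighbouring regions was smallest at Ets1, 2425 bp, and largest at Ikzf3, 4600 bp. Over the genes with 5 or more overlapping regions the median of this value was 6125 bp.

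Set beside 13 close relatives, 8 of the 9 genes had the higher counts, and Satb1 was not part of this comparison. The genes formed 7 groups of close relatives, in which Ets1 was set beside Ets2 and Fli1 beside Erg, and all 13 relatives had fewer regions than every one of the 8 genes in their group. The ETS family as a whole is wider, and Elf1, a more distant ETS factor with 18 regions, had more than Fli1 with 16. Runx1 had 27 regions against 21 at Runx2, a factor of bone formation, and 11 at Runx3. Ets1 had 27 against 2 at Ets2, and Fli1 16 against 11 at Erg, a factor of blood vessels and blood stem cells. Ikzf1 had 18 and Ikzf3 10, against 8 at Ikzf2 (Helios), 7 at Ikzf4 and 2 at Ikzf5. Bcl11b had 19 against 2 at Bcl11a, a factor of B cells and red cell precursors. Zbtb7b had 6 against 2 at Zbtb7a and 4 at Zbtb7c. In the Notch family the gap was small, with 7 at Notch1, 6 at Notch2, 2 at Notch3 and 4 at Notch4. By density Runx1, with 1.23 regions per 10 kb of span, was below Runx3, with 1.82, and above Runx2, with 0.857. Fli1 had 1.70 against 0.487 at Erg, and Notch1 2.81 against 0.694 at Notch2.

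**Figure D5:**
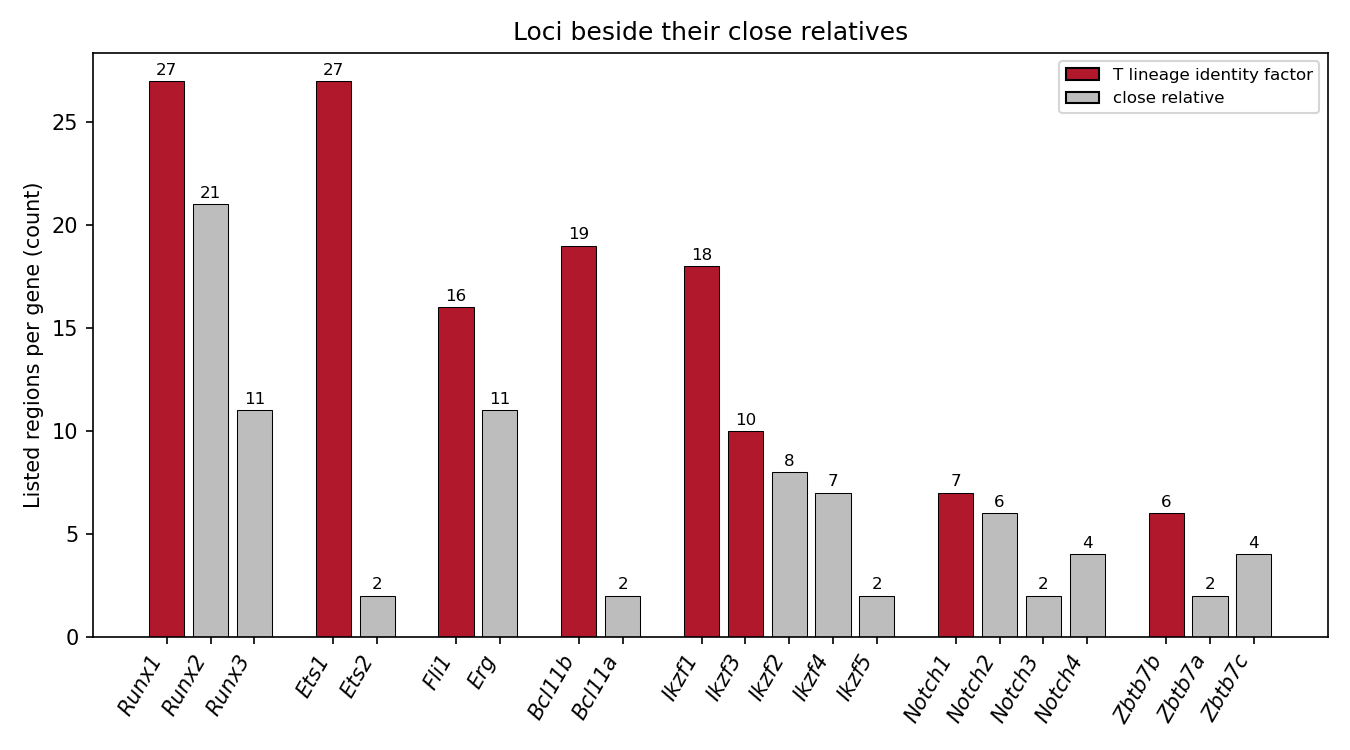
Listed regions per gene (y axis, count) for 8 of the loci (red) and 13 close relatives (grey), 1 bar per gene. In each of the 7 groups a red bar is the highest, from 27 at Runx1 and Ets1 to 6 at Zbtb7b.

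Other genes of the T lineage programme, taken from a list of 16, had a median of 6 regions (range 2 to 26). Of the 16, 12 were above the all-gene median of 2, as were 37.5% of all genes named. Tox and Rbpj, the DNA-binding partner of Notch, had 26 regions each, close to Runx1 and Ets1. Lef1, an HMG box factor of early T cells, had 21, of which 19 overlapped the gene and, as at Ikzf1 and Fli1, none its promoter. Tcf7, its close relative, had 6. Elf1, an ETS factor, had 18 and Tcf12, an E protein, 17. Counts of 2 were found at Myb, Gfi1, Hes1 and Gabpa, and 3 at Cbfb, the partner of Runx1.

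The cell labels were set against marker genes by the regions listed. Of 10 T cell markers 9 were named, with a median of 5.5 regions, and all 5 Th1 markers were named, with a median of 6. Of 6 B cell markers 4 were named (median 2.5, Cd79b and Ms4a1 at 0), of 7 myeloid markers 5 (median 2, Csf1r and Lyz2 at 0) and of 6 erythroid markers 4 (median 1.5, Hbb-bs and Alas2 at 0). Trac, the T cell receptor alpha constant segment, was at 0, and Ebf1, a B cell factor, had 10. The median over all genes named was 2, which leaves out genes at 0, whereas the marker medians include them. Cd79a and Hba-a1 were named only as flanking genes. A marker at 0 may be listed under 1 of the 7356 Ensembl identifiers, of which 0 were matched to a symbol. The share of all genes that are named was not computed, so the numbers of markers named have no background. The presence of a region is not a level of accessibility, and the share of other cells in the cultures was not tested.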

How the data were processed

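A single table, the authors' deposited output of a differential accessibility test, was used. It has 395898 rows (65983 regions under each of 6 contrasts) and gives nothing by sample, so depth and replicate error are unknown. The submitters' processing notes name GRCm39 as the build and edgeR, Picard, BWA and Trim Galore as tools. The sources used here do not say how windows were chosen and merged, or whether the replicates came from different mice.

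Per the file headers, each region has a width, a number of windows and lists of overlapped and flanking genes. The letters P, E and I were read as promoter, exon and intron, and the extent of a promoter is not defined in the table. Where a window p-value could be recovered from the deposited p-value of a region, it never fell along the rows of a contrast, and each representative window was numbered as the first of its region in all contrasts, so neither p-values nor fold changes were read as values of these genes. Window numbers ran without gaps over the table.

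Regions of 1 contrast were counted once per gene with Python 3.11.15 and pandas 2.3.3, and figures were drawn with matplotlib 3.10.9. The counting was tested on simulated data. Each gene was ranked among all genes named. Spans run between the outermost regions overlapping a gene. Motifs were searched on both strands. Of 7356 Ensembl identifiers 0 could be matched to a symbol. No test was made. The members and lists were chosen with earlier results of these data known. Named genes were the 9 genes, their close relatives, 16 T lineage genes, cell type markers and the 10 genes with the most regions; Setd3, Gm15417 and Atrnl1 were named after their values were seen.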

Additional observations from a re-analysis of the deposited data

How the results depend on the processing

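The median of 16 regions per gene over the 9 loci was the same when only overlapping regions were counted, 15 when regions of a single window were left out, and between 14.5 and 17 when each gene was left out in turn. Counting only regions with the promoter class alone gave a promoter share of 2.80% against 14.7%, as 17 of the 21 promoter regions also overlap an exon or intron. Requiring CAGCTG or CAGGTG in place of any E box left 4 promoter sequences with a match against 7. Within the 2855 genes with 5 or more overlapping regions, a set chosen after the data had been seen, density over the span put Runx1 above 52.6% of genes against 97.8% by number, and Satb1 above 60.3% against 83.8%. Restricting the ranks by number to that set put Zbtb7b above 26.5% of genes against 90.3% of all genes named, and Notch1 above 44.6% against 92.8%. Ranks per gene length were not run, as lengths on the build of the regions were not used here. No flanking region was found within the 5 kb to which the table lists distances, so a limit of 2 kb changed nothing. No paired analysis was possible because, in the table used here, no column belongs to a single sample, and leaving out replicates was not run for the same reason. Depth is unknown, so a region that is not listed was not shown to be closed.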

Other observations

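Among the 10 genes with the most regions in the whole table were 2 further regulators of lymphocytes, Foxp1 with 69 regions and Bach2 with 59, and also Inpp4b, a phosphatase of inositol lipids, with 49 and Fgfr2 with 100. The highest count, 366, belonged to an Ensembl identifier with no symbol at hand. Of the 9 loci none reached this group, whose lowest count was 43 at Atxn1.

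The lack of a listed promoter region at Ikzf1 was set against the CpG content of its start. Over the 27025 genes with a RefSeq promoter sequence, 43.3% had a promoter region in the table. Genes were matched by symbol, so a gene listed only under 1 of the 7356 Ensembl identifiers counted as having none. The share was 15.6% for genes whose most CpG-rich promoter window held 0 to 9 CpG pairs, 65.4% for 10 to 19, 83.5% for 20 to 29, 81.9% for 30 to 39, 78.4% for 40 to 49 and 74.6% for 50 or more. Among genes with such a sequence, 10 or more overlapping regions and at least 40 CpG pairs, 93 of 95 (97.9%) had one. With under 40 CpG pairs 489 of 506 (96.6%) did, so the lack was rare among these genes whatever their CpG content. Over all 809 genes with 10 or more overlapping regions, with or without such a sequence, 46 (5.69%) had no promoter region. The comparison by CpG leaves out those without a sequence, Fli1 with 16 overlapping regions among them. Ikzf1, with 52 CpG pairs and 18 overlapping regions, was 1 of the 2 genes among those 95 without a promoter region. The other was Atrnl1 with 41 and 12. The reason was not tested.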
